A study of Mus musculus with 5 samples.

Results

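The BCL2 family apoptosis regulators were 10 genes chosen by symbol: the anti-apoptotic Bcl2, Bcl2l1 and Mcl1, the effectors Bax and Bak1, and the BH3-only genes Bid, Bcl2l11, Bbc3, Pmaip1 and Bmf. The rule that defines them uses names and no measured value, although the family was picked with earlier results of these data known. All 10 were found once among 54532 gene IDs, and all 10 passed the expression filter that left 16226 genes for testing. RNA sequencing of mouse kidney compared 2 samples from DMXAA-treated mice with 3 samples from vehicle-treated mice. DMXAA is a synthetic agonist of mouse STING, a protein that relays the sensing of cytosolic DNA to interferon genes. Every animal was a wild type (WT) male of the inbred strain C57BL/6J, 8 weeks old. The DMXAA group received 10 mg/kg by intraperitoneal (i.p.) injection once a day for 3 days, and the vehicle group received vehicle on the same schedule. Kidneys were taken on day 3. Whether the samples came from separate mice is not in the labels, so p-values measure only the spread between these samples, which may be technical. Because whole tissue was sequenced, fewer cells of a type and less RNA per cell cannot be told apart.

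Proteins of this family decide whether the outer mitochondrial membrane is opened, which releases cytochrome c and starts the caspase cascade. The effectors Bax and Bak1 form the pores, the anti-apoptotic proteins hold them in check, and the BH3-only proteins respond to damage by blocking the anti-apoptotic proteins or by activating the effectors directly. In the kidney the pathway is best known from tubular epithelium, where it contributes to cell loss after ischaemic and toxic injury.

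No member passed the test in the DMXAA kidneys after adjustment over all genes. Bbc3, which encodes the p53-inducible BH3-only protein PUMA, and the effector Bax were the 2 members of 10 whose DMXAA libraries lay below every vehicle library. That pattern was not rare, since 12.3% of all tested genes had it and 26.0% had groups that did not overlap in either direction. The DMXAA over vehicle fold was 0.497 for Bbc3 (95% interval 0.294 to 0.841) and 0.780 for Bax (95% interval 0.625 to 0.972). The 3 anti-apoptotic genes and Pmaip1 had folds between 0.930 and 1.14. Bmf and Bcl2l11 varied more among vehicle libraries than between groups.

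Total counts were 18176586 and 20264228 in the DMXAA libraries and 17667490 to 18552912 in the vehicle libraries. Proximal tubule markers, among them the endocytic receptor Lrp2 and its partner Cubn, were abundant in all 5 libraries, as the kidney label requires. Their summed level was 8045 and 8773 CPM (normalised read counts scaled to library size) in DMXAA and 6711, 7854 and 6200 CPM in vehicle. Vehicle 1 stood apart by its markers of neighbouring tissue. Its adipose marker sum was 388 CPM, against 0.166 and 0.348 CPM in DMXAA and 0.398 and 8.15 CPM in vehicle 2 and 3, a list that includes the adipokine gene Adipoq and Plin1. Its urothelial sum, which includes Krt19, was 93.7 CPM, against 5.94 and 2.59 CPM in DMXAA and 1.65 and 9.65 CPM in vehicle 2 and 3. Red blood cell markers summed to 52.3 and 29.9 CPM in DMXAA and 280, 170 and 73.3 CPM in vehicle. A check list of 8 interferon-induced genes, among them Rsad2 and Ifi44, summed to 598 and 766 CPM in DMXAA and 180, 416 and 204 CPM in vehicle. Irf7 gave the largest part in DMXAA, with 343 and 478 CPM there and 48.8, 193 and 68.4 CPM in vehicle. In 6 of the 8 genes both DMXAA libraries lay above every vehicle library, as in 2221 of the 16226 tested genes. Ifit1 overlapped because vehicle 2 (40.1 CPM) lay just above DMXAA 1 (39.9 CPM). Ifit3 overlapped because vehicle 2 (90.6 CPM) lay above both DMXAA libraries (86.3 and 89.0 CPM).

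The members spanned a wide range of abundance. Per kilobase of exon (RPKM, computed over the union of a gene's exons), Mcl1 was the most abundant at 57.2 and 44.5 RPKM in DMXAA and 46.2, 60.1 and 57.7 RPKM in vehicle. Bcl2l1 came next at a mean of 26.7 RPKM over the 5 libraries, followed by Bid at 21.4, Bax at 19.0, Bak1 at 7.40 and Pmaip1 at 5.77 RPKM. The lowest were Bmf at 2.93, Bcl2 at 2.14, Bbc3 at 1.65 and Bcl2l11 at 1.42 RPKM. Mcl1 lay above Bcl2l1, and Bax above Bak1, in 5 of 5 libraries with ranges that did not overlap. Bcl2l1 above Bid and Pmaip1 above Bmf also held in 5 of 5 libraries, although their ranges overlapped. The remaining neighbours could not be ordered: Bid exceeded Bax in 3 of 5 libraries, Bak1 exceeded Pmaip1 in 4, Bmf exceeded Bcl2 in 2, Bcl2 exceeded Bbc3 in 3 and Bbc3 exceeded Bcl2l11 in 2. By mean RPKM, Bbc3 ranked 10 of the 10 members in DMXAA and 8 in vehicle. Dividing by the longest transcript in place of the exon union brought Mcl1 (53.2 RPKM) and Bcl2l1 (47.7 RPKM) together, with Mcl1 above in 4 of 5 libraries. With that length the ranges of Bcl2l1 and Bid no longer overlapped, and Pmaip1 exceeded Bmf in 4 of 5 libraries. Bcl2l11 then exceeded Bbc3 in 4 of 5 libraries, and the vehicle mean of Bbc3 (2.41 RPKM) fell below that of Bcl2 (2.59 RPKM).

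**Figure D1:**
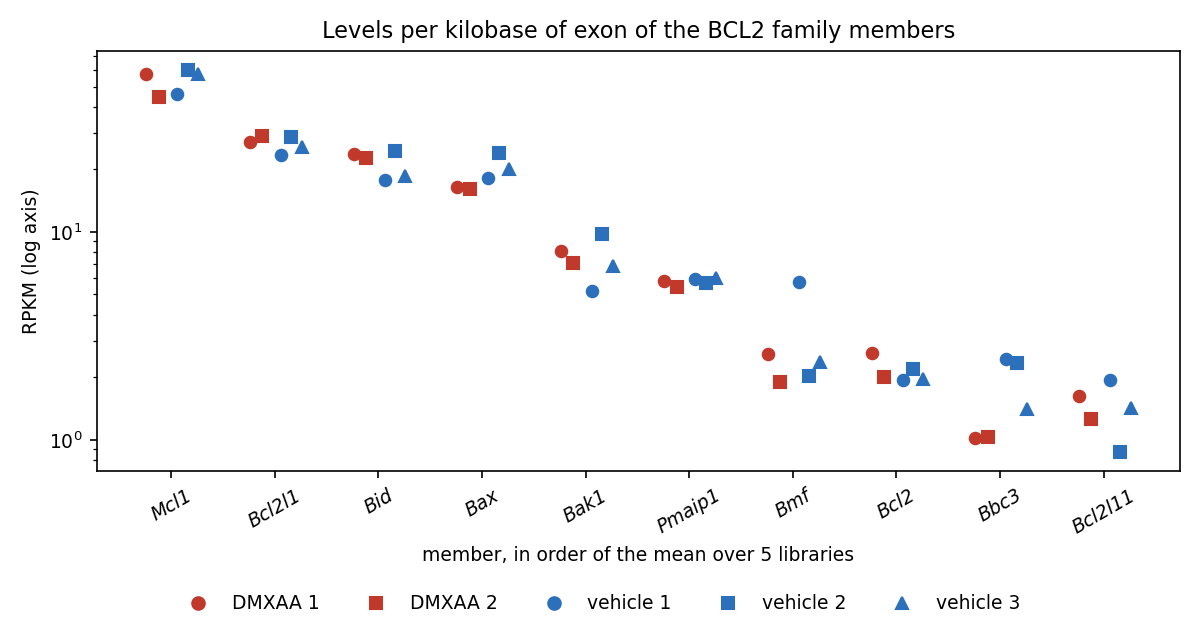
RPKM per exon union (log axis) of each member in each library, red for DMXAA and blue for vehicle, with members ordered by their mean over 5 libraries. Mcl1 sits highest at 44.5 to 60.1 RPKM, and 4 members lie near or below 3 RPKM with overlapping values.

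The 3 anti-apoptotic genes together supplied 59.4% and 57.6% of the family's summed RPKM in the DMXAA libraries and 55.6%, 56.8% and 60.0% in the vehicle libraries. The groups overlapped, and anti-apoptotic genes gave the largest share of the 3 roles in every library. Bcl2, the founding member (ENSMUSG00000057329, chromosome 1, 106538178 to 106714274, minus strand, GRCm38), had 24.0 and 18.4 CPM in DMXAA and 17.8, 20.1 and 17.9 CPM in vehicle. Only DMXAA 1 stood above the vehicle libraries, and the log2 fold change was 0.19 (SE 0.15), or -0.012 without DMXAA 1. Bcl2l1 (ENSMUSG00000007659, chromosome 2, 152780668 to 152831728, minus strand), which encodes BCL-XL, had 123 and 133 CPM in DMXAA and 108, 131 and 118 CPM in vehicle. Its highest value was in DMXAA 2 and its lowest in vehicle 1, with a log2 fold change of 0.11 (95% interval -0.15 to 0.37). Mcl1 (ENSMUSG00000038612, chromosome 3, 95658788 to 95663176, plus strand) encodes a short-lived protein controlled largely by its turnover. Its transcript stood at 196 and 152 CPM in DMXAA and 158, 206 and 197 CPM in vehicle. The groups overlapped, with a log2 fold change of -0.10 (95% interval -0.48 to 0.27), which was 0.067 without DMXAA 2.

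**Figure D2:**
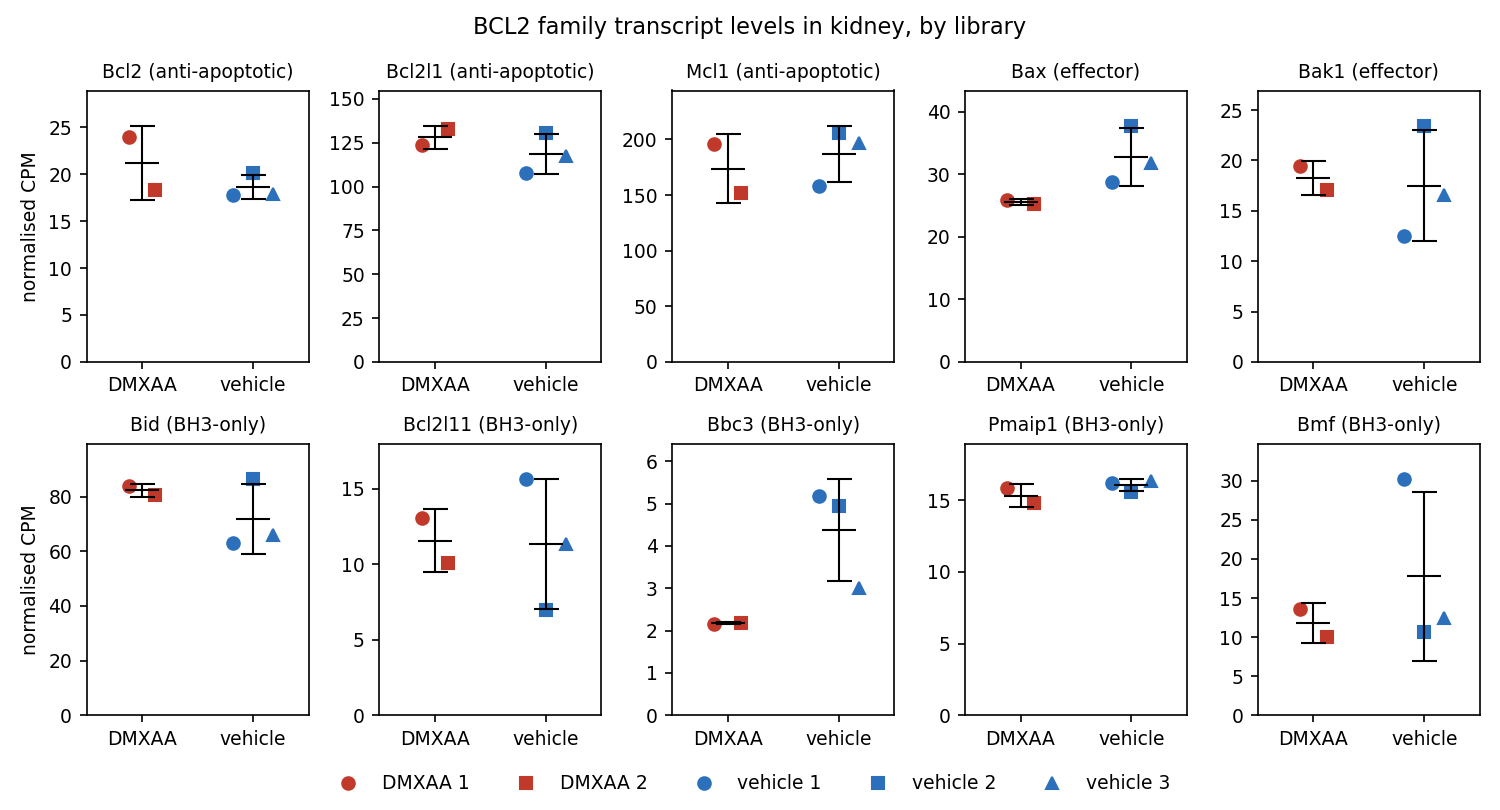
Normalised CPM of the 10 members, with DMXAA on the left and vehicle on the right of each panel. Symbols are single libraries and lines are the mean ± SD (n = 2 DMXAA, n = 3 vehicle). Bax and Bbc3 are the panels in which both DMXAA libraries lie below all vehicle libraries.

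Of the effectors, Bax (ENSMUSG00000003873, chromosome 7, 45461697 to 45466898, minus strand) is a mostly cytosolic protein that moves to mitochondria when activated. It had 25.9 and 25.2 CPM in DMXAA and 28.8, 37.7 and 31.8 CPM in vehicle, from 466 to 664 reads a library. Both DMXAA libraries lay below the lowest vehicle library, with means of 25.5 ± 0.450 CPM (SD, n = 2) in DMXAA and 32.8 ± 4.57 CPM (SD, n = 3) in vehicle. The log2 fold change was -0.36 (SE 0.13, edgeR unadjusted p = 0.0323, adjusted p = 0.741). Leaving out vehicle 2, its highest library, brought it to -0.24. Bak1 (ENSMUSG00000057789, chromosome 17, 27019810 to 27029009, minus strand), the effector that resides in the mitochondrial membrane, had 19.5 and 17.1 CPM in DMXAA and 12.5, 23.4 and 16.6 CPM in vehicle. Vehicle 1 and vehicle 2 bracketed all the other libraries. Its log2 fold change of 0.06 (95% interval -0.54 to 0.67) became -0.14 without vehicle 1 and 0.33 without vehicle 2. Bax and Bak1 together made up 16.8% and 17.6% of the family's RPKM in DMXAA and 18.2%, 21.1% and 19.0% in vehicle. Both DMXAA shares were below all vehicle shares.

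Bbc3 had the smallest p of the BH3-only genes and of all 10 members (ENSMUSG00000002083, chromosome 7, 16308393 to 16318205, plus strand). PUMA binds all the anti-apoptotic family proteins and is a main mediator of p53-dependent cell death. The gene had 2.16 and 2.19 CPM in DMXAA and 5.19, 4.95 and 2.99 CPM in vehicle, which were 39 and 44 reads in DMXAA and 96, 87 and 54 reads in vehicle. The 2 DMXAA libraries were nearly equal and below every vehicle library, and vehicle 3 lay nearer to them than to vehicle 1 and 2. Means were 2.18 ± 0.0175 CPM (SD, n = 2) in DMXAA and 4.38 ± 1.20 CPM (SD, n = 3) in vehicle. The log2 fold change was -1.01 (SE 0.32, edgeR unadjusted p = 0.0166, adjusted p = 0.724). Counting error alone gives a coefficient of variation of 11.3% at the vehicle depth of this gene, against 27.5% between vehicle libraries. That error is larger at the lower read counts in DMXAA. The small SD of the 2 DMXAA libraries lies below it and does not show a tightly fixed level.

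Bid (ENSMUSG00000004446, chromosome 6, 120891930 to 120916853, minus strand) links death receptors to mitochondria once caspase-8 has cut it, and was the most abundant BH3-only gene. It had 84.0 and 80.7 CPM in DMXAA and 63.0, 86.5 and 65.8 CPM in vehicle. Vehicle 2 was the highest library, so the groups overlapped, with a log2 fold change of 0.20 (95% interval -0.15 to 0.55). Bcl2l11 (ENSMUSG00000027381, chromosome 2, 128126038 to 128162547, plus strand) encodes BIM, a FOXO target that acts on growth factor withdrawal. It had 13.0 and 10.1 CPM in DMXAA and 15.6, 6.99 and 11.4 CPM in vehicle. Both DMXAA values lay within the vehicle range, and the log2 fold change of 0.03 became 0.32 without vehicle 1 and -0.22 without vehicle 2.

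Pmaip1 (ENSMUSG00000024521, chromosome 18, 66458533 to 66465565, plus strand) encodes NOXA, a p53-inducible protein that targets MCL1. It was the most even member, at 15.9 and 14.8 CPM in DMXAA and 16.2, 15.6 and 16.4 CPM in vehicle. The groups overlapped, and the 95% interval of its log2 fold change ran from -0.34 to 0.21. Bmf (ENSMUSG00000040093, chromosome 2, 118528757 to 118549687, minus strand), a BH3-only protein that responds to loss of cell attachment, had 13.7 and 10.0 CPM in DMXAA and 30.2, 10.7 and 12.4 CPM in vehicle. Vehicle 1 alone was high, and the other 4 libraries lay close together. The log2 fold change was -0.59 (SE 0.46) with all libraries and 0.025 without vehicle 1. In vehicle 1 the collecting duct marker sum was also highest, at 1081 CPM, against 551 and 614 CPM in DMXAA and 574 and 646 CPM in vehicle 2 and 3. Most of the vehicle 1 sum was Aqp2, at 774 CPM. Aqp3 was highest in that library too, but Scnn1g and Foxi1 were lowest there, and Atp6v1g3 and Slc4a1 were not highest. Vehicle 1 also had the high adipose and urothelial sums given above, and their part in the Bmf value was not tested. The 5 BH3-only genes together made up 23.8% and 24.7% of the family's RPKM in DMXAA and 26.2%, 22.1% and 20.9% in vehicle, with overlapping groups.

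The members differed widely in how much the vehicle libraries varied. The coefficient of variation over the vehicle libraries was 2.60% for Pmaip1, 6.90% for Bcl2, 9.52% for Bcl2l1, 13.5% for Mcl1 and 14.0% for Bax. It was 17.8% for Bid, 27.5% for Bbc3, 31.6% for Bak1, 38.1% for Bcl2l11 and 60.8% for Bmf, with a median of 13.2% over all tested genes. Except for Pmaip1, these values exceeded the counting error, which lay between 1.72% for Mcl1 and 11.3% for Bbc3.

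After Benjamini-Hochberg adjustment over all genes, edgeR's quasi-likelihood test called 0 of the 10 members and 0% (0 of 16226) of all tested genes at 0.05. At an unadjusted p below 0.05, 2 members passed, Bbc3 and Bax, where 6.55% of all tested genes did. Both were lower in DMXAA, where 2.65% of tested genes were lower at that threshold. By unadjusted p, Bbc3 ranked 365 and Bax 682 among the 16226 genes. The same 2 members had groups that did not overlap, which held for 26.0% of tested genes in either direction and for 12.3% with DMXAA below. DESeq2 called 0 members at an adjusted p below 0.05, where it called 0.296% of genes (54 of 18246). At an unadjusted p below 0.05 DESeq2 passed the same members, against 3.54% of genes. Its unadjusted p was 0.0108 for Bbc3 and 0.0439 for Bax. Of the 10 members, 5 had a log2 fold change above 0 and 5 below, with a median of -0.02 beside -0.01 over all tested genes. Without either DMXAA library, the unadjusted p of Bbc3 was 0.0727 or 0.0705 and that of Bax 0.112 or 0.140, in fits where the lone DMXAA library was assumed to vary like the vehicle libraries.

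**Figure D3:**
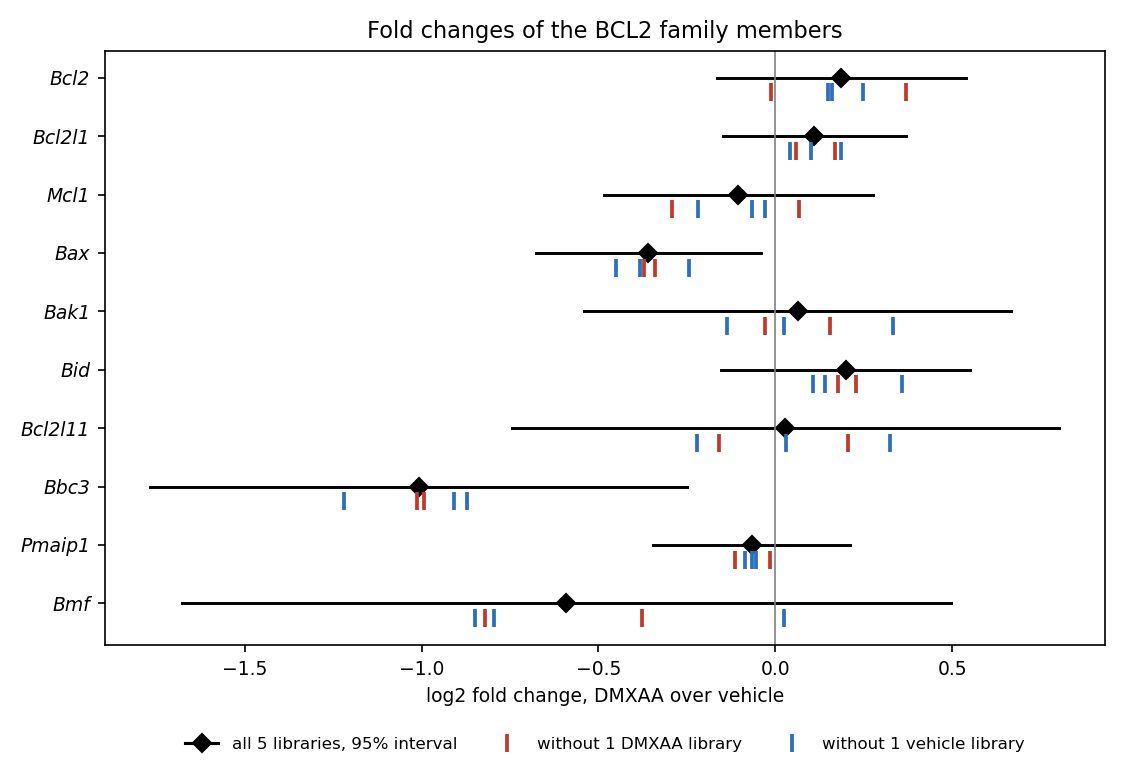
Log2 fold change, DMXAA over vehicle, of each member. Diamonds and lines give the estimate and 95% interval from all 5 libraries, and ticks give the estimate with 1 library left out (red, a DMXAA library; blue, a vehicle library). The intervals of Bax and Bbc3 lie below 0, and the ticks of Bcl2, Mcl1, Bak1, Bcl2l11 and Bmf fall on both sides of 0.

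Ratios of a pro-apoptotic to an anti-apoptotic gene compare members within a library, so they do not depend on library scaling. The log2 RPKM ratio of Bax to Bcl2 was 2.65 and 3.00 in DMXAA and 3.23, 3.45 and 3.37 in vehicle, a mean difference of -0.53. Both DMXAA ratios were below every vehicle ratio. Bax to Bcl2l1 was -0.71 and -0.85 in DMXAA and -0.37, -0.25 and -0.35 in vehicle, again without overlap. Bax to Mcl1 did overlap, at -1.80 and -1.48 in DMXAA and -1.34, -1.33 and -1.52 in vehicle. Bbc3 to Bcl2 was -1.36 and -0.96 in DMXAA and 0.33, 0.09 and -0.47 in vehicle. Bbc3 also lay lower against Bcl2l1 (mean difference -1.08) and Mcl1 (mean difference -0.86) in both DMXAA libraries. Of 21 such ratios, 5 were below in both DMXAA libraries, and all 5 had Bax or Bbc3 as the pro-apoptotic gene. In 1 ratio, Bid to Mcl1, both DMXAA libraries were higher, at -1.27 and -0.97 in DMXAA and -1.38, -1.30 and -1.64 in vehicle. These ratios share genes with each other and with the values above, where Bax and Bbc3 were already the 2 members below every vehicle library. No p is given for them, and the share of such ratios over other gene pairs was not computed.

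**Figure D4:**
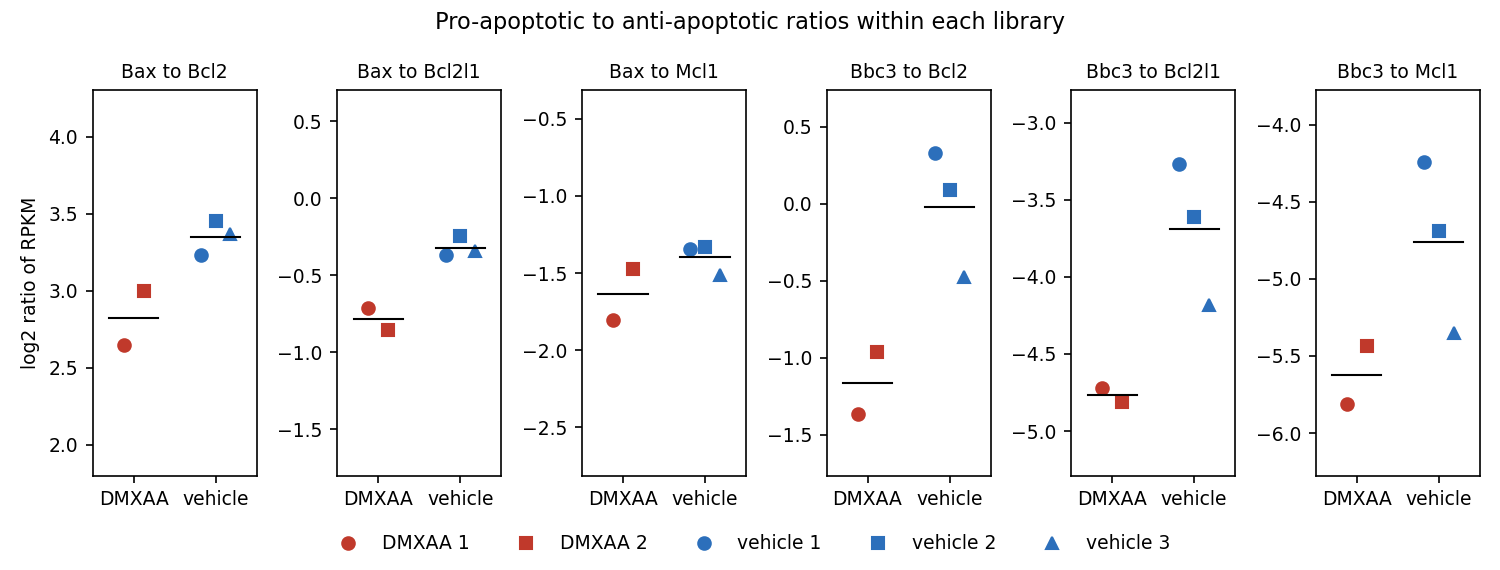
Log2 ratio of RPKM within each library for Bax and Bbc3 over each anti-apoptotic gene, with DMXAA on the left and vehicle on the right of each panel. Points are libraries and lines are group means. The groups are apart in every panel except Bax to Mcl1, where vehicle 3 lies below DMXAA 2.

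Some marker sums also differed between the groups, some of them higher and some lower in DMXAA. The proximal tubule and interferon sums were higher in both DMXAA libraries than in every vehicle library, and the red blood cell sum was lower in both. The adipose sum was also lower in both, but vehicle 2 (0.398 CPM) was nearly level with DMXAA 2 (0.348 CPM). Only vehicle 1 (388 CPM) had a high adipose sum. Of 5 red blood cell genes, 5 were lower at an edgeR unadjusted p below 0.05, where 2.65% of all tested genes were. These 5 genes mark the same cell type and are not separate results. The haemoglobin gene Hba-a1, whose near-identical copy makes its level uncertain, had 25.6 and 15.5 CPM in DMXAA. It had 136, 75.6 and 35.2 CPM in vehicle. The part of these markers in the Bax and Bbc3 values was not tested. Without vehicle 1, the library with the high adipose sum, the log2 fold change was -0.45 for Bax and -0.87 for Bbc3.

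Promoter sequences, taken from RefSeq (build GRCm38.p6), were at hand for 9 of the 10 members, in 16 windows that run from 250 bases before a start site to 50 after it. The windows below are shown because Bax and Bbc3 were the members with the smallest unadjusted p, and Bcl2l11 shares a FOXO motif with Bbc3. Capitals mark the p53 half-site in Bax and the FOXO core, GTAAACA or its reverse complement TGTTTAC, in Bbc3 and Bcl2l11. The windows are chr7:45466849-45467148 (minus strand) for Bax, chr7:16310011-16310310 (plus strand) for Bbc3 and chr2:128125788-128126087 (plus strand) for Bcl2l11.
Bax: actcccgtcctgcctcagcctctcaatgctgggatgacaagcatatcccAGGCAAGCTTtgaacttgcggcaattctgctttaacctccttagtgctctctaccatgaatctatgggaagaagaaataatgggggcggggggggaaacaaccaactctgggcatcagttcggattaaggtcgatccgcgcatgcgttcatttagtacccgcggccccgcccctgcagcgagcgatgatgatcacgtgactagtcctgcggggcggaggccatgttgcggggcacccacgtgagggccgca
Bbc3: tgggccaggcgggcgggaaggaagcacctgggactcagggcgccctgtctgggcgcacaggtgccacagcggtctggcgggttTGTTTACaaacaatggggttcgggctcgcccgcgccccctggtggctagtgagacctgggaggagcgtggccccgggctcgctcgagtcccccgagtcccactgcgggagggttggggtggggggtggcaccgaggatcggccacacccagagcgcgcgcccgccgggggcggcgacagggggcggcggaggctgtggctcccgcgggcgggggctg
Bcl2l11: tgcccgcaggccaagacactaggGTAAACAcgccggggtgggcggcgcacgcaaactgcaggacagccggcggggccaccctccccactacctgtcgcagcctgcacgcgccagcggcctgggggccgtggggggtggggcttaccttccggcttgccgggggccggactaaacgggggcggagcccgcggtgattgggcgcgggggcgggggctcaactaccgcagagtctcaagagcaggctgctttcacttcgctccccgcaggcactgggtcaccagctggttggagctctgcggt

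The p53 half-site match in Bax began 201 bases upstream of the start. The FOXO core began 167 bases upstream of 1 of 3 Bbc3 starts and 227 bases upstream of 1 of 2 Bcl2l11 starts. Both strands were searched. Some genes have several windows, so matches are counted per window. A p53 half-site match was found in 2 of the 16 windows, 1 of Bax and 1 of Bmf, and in 8.36% of 32851 mouse promoters of the same length. The FOXO core was in 2 of the 16 windows, 1 of Bbc3 and 1 of Bcl2l11, and in 3.65% of promoters. No window of the 9 members held the interferon-response core GAAANNGAA, which was in 8.56% of promoters, or TATAAA, which was in 13.6%. The GC box GGGCGG was in 10 of the 16 windows and 35.7% of promoters, and CCAAT was in 5 of the 16 windows and 37.4% of promoters. Such matches describe the letters in these windows and do not show binding.

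Among 20 listed transcription factors known to drive BCL2 family genes, 19 were tested, 6 with higher and 13 with lower estimates (median log2 fold change -0.13), and none passed the test. The forkhead factor Foxo3, an activator of Bcl2l11 and Bbc3, had 153 and 149.5 CPM in DMXAA and 103, 101 and 109.5 CPM in vehicle. Its groups were well apart, with a log2 fold change of 0.54 (SE 0.09, edgeR unadjusted p = 0.000493, adjusted p = 0.535). Ddit3, which encodes the stress factor CHOP, had 24.2 and 22.9 CPM in DMXAA and 18.8, 15.7 and 13.8 CPM in vehicle (unadjusted p = 0.00898). Myc had 4.16 and 4.63 CPM in DMXAA and 7.19, 5.63 and 8.60 CPM in vehicle (unadjusted p = 0.0235). Both Foxo3 and Ddit3 were above, and Myc below, every vehicle library. Irf3, named after its values were seen, was the remaining factor below an unadjusted p of 0.05, with a log2 fold change of -0.28.

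Of 17 genes for p53 and its other targets, 5 had higher and 12 lower estimates, with a median log2 fold change of -0.12. The antiproliferative gene Btg2 had 25.7 and 29.6 CPM in DMXAA and 46.9, 36.3 and 55.6 CPM in vehicle, a log2 fold change of -0.74 (unadjusted p = 0.00561). Trp53inp1, a p53-induced regulator of cell death and autophagy, went the other way, with 57.1 and 55.0 CPM in DMXAA and 49.9, 43.5 and 45.3 CPM in vehicle. These 2 were the p53 targets below an unadjusted p of 0.05, and Aen, an apoptosis-enhancing nuclease, had a log2 fold change of -0.18 (unadjusted p = 0.103). Trp53 itself had 27.6 and 20.8 CPM in DMXAA and 24.3, 26.5 and 23.5 CPM in vehicle, so its groups overlapped. It was added to the named genes after its values were seen.

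Outside the 10 members, 10 of 15 other BCL2 family genes were tested, 5 with higher and 5 with lower estimates. Bik, a BH3-only gene, had 7.60 and 6.91 CPM in DMXAA and 9.03, 10.9 and 9.37 CPM in vehicle, both DMXAA libraries being lower (unadjusted p = 0.0415). The effector-like Bok (log2 fold change -0.43) and Bcl2l13 (0.13) had p above 0.05. Bcl2a1a, Bcl2a1b, Bcl2l10, Hrk and Bcl2l15 were below the expression filter, and the Bcl2a1 genes are near-identical copies whose levels are uncertain.

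Downstream of the mitochondria, 16 apoptosome, caspase and released-factor genes had 11 higher and 5 lower estimates (median 0.02). Diablo (-0.36) and Apaf1 (0.32) had the smallest p on that list, and no gene of the list was below an unadjusted p of 0.05. Of 9 inhibitor of apoptosis genes, 8 were tested and 6 had higher estimates (median 0.16). Birc6, a large ubiquitin ligase that binds caspases, had 186 and 189 CPM in DMXAA and 166, 144 and 151 CPM in vehicle (unadjusted p = 0.0221), and Birc3 (0.26) and Xiap (0.18) did not reach 0.05. Among 11 tested death receptor genes, 6 had higher and 5 lower estimates. Cflar, which encodes the caspase-8 inhibitor cFLIP, had 221 and 224 CPM in DMXAA and 174, 182 and 189 CPM in vehicle (unadjusted p = 0.0135). Ripk1 (0.16) and Tnfrsf1a (-0.18) had smaller p than the rest of that list, apart from Cflar. The 19 tested partners and turnover factors of BCL2 family proteins had 11 higher and 8 lower estimates (median 0.01), and Usp9x (0.32), Huwe1 (0.24) and Gsk3b (0.11) had the smallest p of that list. None of the genes on these lists passed the adjusted test.

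**Figure D5:**
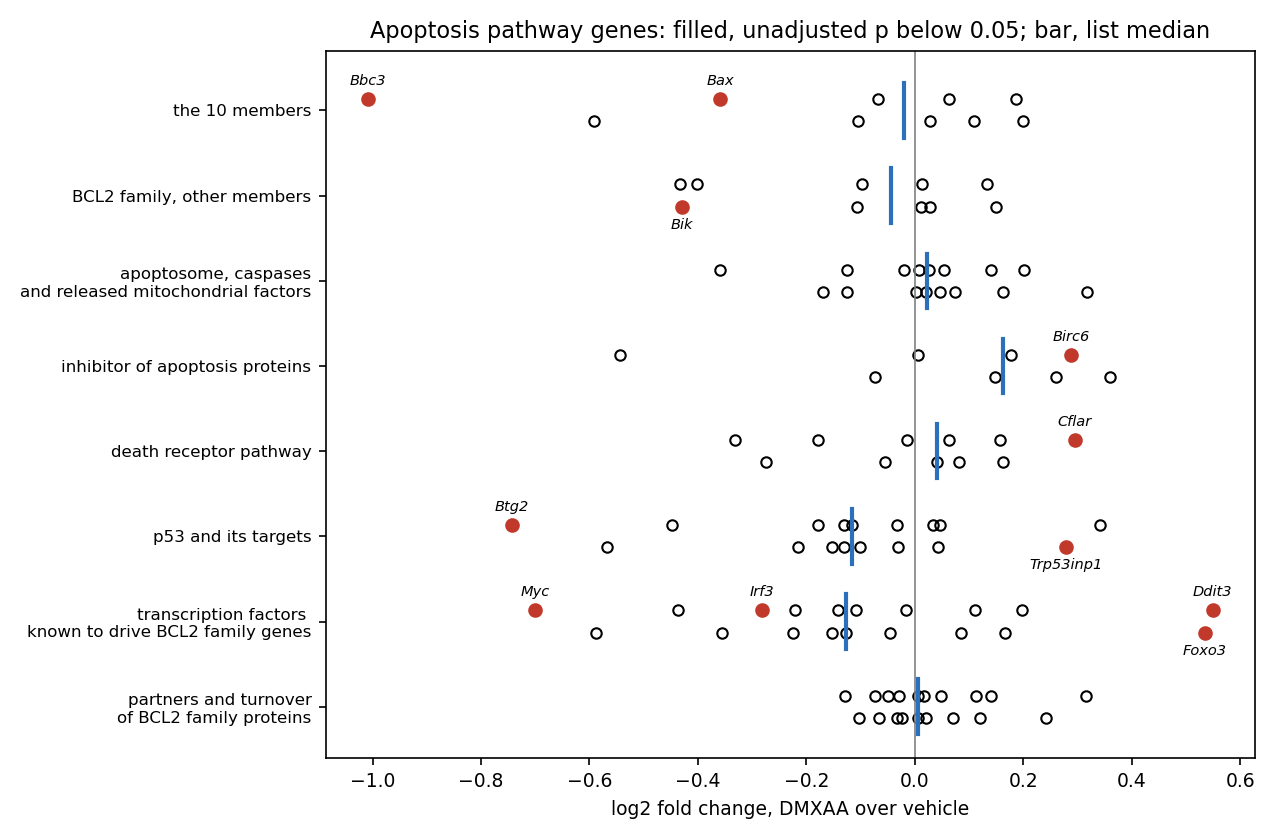
Log2 fold change, DMXAA over vehicle, of every tested gene on each apoptosis list. Filled red points have an unadjusted p below 0.05, open circles do not, and bars are list medians, which lie between -0.13 and 0.16.

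By the likeness of their pattern over the 5 libraries, 3 genes came nearest to Bbc3 among 10377 genes above a set level. That level, an average log2 CPM of 3, is higher than Bbc3 reached, so genes as low as Bbc3 were not compared. The measure was the root mean square difference of log2 CPM, each gene centred on its own mean. Gsta4, a glutathione transferase, was nearest (0.19), with 22.5 and 21.8 CPM in DMXAA and 40.3, 35.8 and 28.0 CPM in vehicle. Gpt, the alanine aminotransferase, followed (0.23), with 13.0 and 10.0 CPM in DMXAA and 18.8, 21.1 and 12.3 CPM in vehicle. Spink8 was next (0.24), with 14.0 and 12.3 CPM in DMXAA and 20.3, 24.3 and 17.4 CPM in vehicle.

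The strand setting is unknown, so reads in exon bases shared with neighbouring genes may have been miscounted for some members. Whether this would add a neighbour's reads or leave out the member's own cannot be told. Bid shares 628 exon bases with Bcl2l13 on the opposite strand, Bak1 shares 437 with Ggnbp1 and Bcl2 shares 558 with the antisense gene D630008O14Rik. Bcl2l13 had 1107 and 1230 reads in DMXAA and 1086, 938 and 1005 reads in vehicle, against 1166 to 1623 reads for Bid. Ggnbp1 had 192 and 265 reads in DMXAA and 286, 279 and 251 reads in vehicle, against 231 to 412 reads for Bak1. The levels of Bid and Bak1 are therefore uncertain, by an amount that was not tested. The antisense gene at Bcl2 had 0 to 2 reads a library. Bax shares 192 of its 1576 exon bases with Gm45808 on its own strand. Gm45808 had 0 reads in every library, which does not show whether reads in the shared bases were counted for Bax.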

How the data were processed

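The deposited table holds unnormalised read counts of each Ensembl gene ID in 5 columns. The submitters' processing notes name build mm10, HISAT2, Subread, featureCounts and DESeq2 1.16.1. Which tool did which step, the annotation and the strand setting are not stated there. Columns were matched to samples by name (CO as control, XA as DMXAA), and 0 were left unassigned. The labels' protocols name both a TruSeq and a NEBNext kit without saying which sample had which, so a library batch could not be tested. GENCODE M21, on the same assembly, gave symbols for 99.9% of 54532 IDs and the exon lengths.

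Levels are TMM-normalised CPM and, per exon length, RPKM, both computed from the deposited counts. The test was edgeR 4.0.16's two-sided quasi-likelihood F test in R 4.3.3 on the filterByExpr gene set, with TMM factors and a design of group alone. Fold changes are DMXAA over vehicle. The 13 alternatives were each of the 5 libraries left out, DESeq2 1.42.0, a replicate block, a transcript length offset, RLE factors, a robust prior, all genes unfiltered, genes at 1 CPM in 2 libraries, and the table without mitochondrial genes and the 20 of highest abundance. The procedure was run on simulated counts, and the outcome is not given here. Libraries of a group differed beyond sampling noise (chi-square of 5.62 to 27.4 per degree of freedom), and all 5 were counted as samples. Such a difference does not show that they came from separate mice. The limit for a count of 0, set at 3 counts, was 0.148 to 0.170 CPM and covers counting error only.

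The members and lists were chosen with earlier results of these data known. Named genes were all 10 members, up to 3 tested genes of each pathway list with the smallest unadjusted p, the first 2 of marker lists, and the 3 tested genes with an average log2 CPM above 3 whose centred pattern was nearest to that of the member with the smallest p. Of the genes this rule names, 1 is not reported here.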

Additional observations from a re-analysis of the deposited data

How the results depend on the processing

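No member was called under any of 13 alternatives, with a lowest member adjusted p of 0.342. Over all genes, DESeq2 called 54, edgeR without an expression filter 34, and edgeR with the replicate number as a block 4, against 0 in the fit reported; leaving out 1 library gave 0 to 2, with 2 called without vehicle 1. Bax (-0.45 to -0.24) and Bbc3 (-1.22 to -0.87), like Bcl2l1, Bid and Pmaip1, kept their direction in 13 of 13 alternatives. Leaving out 1 library turned the direction of the others: the log2 fold change ranged from -0.012 to 0.37 for Bcl2, -0.29 to 0.067 for Mcl1, -0.14 to 0.33 for Bak1, -0.22 to 0.32 for Bcl2l11 and -0.85 to 0.025 for Bmf; the cause was not tested. The members with groups that did not overlap numbered 2 to 7 with 1 library left out, where fewer libraries make overlap rarer by construction (6 without DMXAA 1, 7 without vehicle 2). The difference in the log2 ratio of Bax to Bcl2 ranged from -0.70 to -0.35 with 1 library left out. With the replicate block, the unadjusted p of Bax was 0.0667 and that of Bbc3 0.0107. Deviations from the group mean correlated at 0.0748 and 0.0809 between libraries of the same replicate number. With 2 DMXAA libraries, each deviation there mirrors the other, so these values are not separate and cannot decide on pairing. The fit reported took no pairing. Depth limits Bbc3 most, at 39 to 96 reads a library.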
